A study of Zea mays with 24 samples.

Results

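GRMZM2G031432 and GRMZM2G051619 are 2 maize genes that the study names *GA2OX1*, for gibberellin 2-oxidase. Both were described here among 37467 genes listed in at least 1 of 24 leaf RNA-seq libraries. The pair was selected on its values in the W22 libraries, where both genes had higher levels under drought stress in W22 and lower levels in the *zmnf-ya1* mutant under drought. Values of the W22 set are therefore given as a description, with no test. Values of the other libraries were not used in that choice, although earlier results of these data were known when it was made.

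Gibberellins are growth hormones that drive stem and leaf elongation. GA 20-oxidases and GA 3-oxidases carry out the last steps to the active hormone, and GA 2-oxidases inactivate the hormone or its precursors by hydroxylation, so that growth slows. The hormone is perceived by GID1 receptors, which then lead to the breakdown of DELLA proteins, the repressors of the growth response. In Arabidopsis, GA 2-oxidase genes are among those known to respond to salt stress.

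The 24 libraries formed 3 sets of 8, with 2 libraries in each of 12 groups. The W22 set held the *zmnf-ya1* mutant, homozygous for a Mu transposon insertion in the transcription factor gene *ZmNF-YA1* in the W22 background, and wild-type W22, each under drought stress and normal conditions. The DH4866 set held libraries labelled *ZmNF-YA1*OE, for overexpression in inbred line DH4866, and wild-type DH4866, each labelled with the same 2 conditions. The study's methods name 2 RNA-seq comparisons, those of the W22 and B104 sets. They give no growth, drought treatment or sampling for RNA-seq of DH4866. In the study's transgenic DH4866 plants the *ZmNF-YA1* coding sequence stands behind the stress-inducible Arabidopsis *rd29A* promoter. The B104 set held *ZmNF-YB16* OE, a single overexpression line in inbred line B104, and wild-type B104, again under drought and normal conditions. All labels give V4-stage leaf, whereas the study's methods give ear leaves of field-grown plants for the B104 set and greenhouse pots for the W22 set. The methods also name different RNA extractions (McCarty for B104, TRIzol for W22) and sequencers (Illumina for B104, a BGI instrument for W22), where the labels give TRIzol and Illumina protocols for all. For the W22 and B104 sets, the methods state that leaves of several plants were pooled in a sample. Whether the 2 libraries of a group came from separate plantings is not stated in the sources used here, so P values measure only the spread between these libraries.

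Total expected counts per library were 20696448 to 21289711 in the DH4866 and W22 sets and 3429314 to 5608889 in the B104 set, so low values were least precise in the B104 set. C4 photosynthesis genes, which mark leaf tissue, were abundant in every library, with 6 genes summing to 29345 to 36266 FPKM in the W22 and DH4866 sets. B104-set libraries had sums of 5101 to 7264 FPKM under drought and 21096 to 21891 FPKM under normal conditions, and the part of leaf composition in the results of that set was not tested. In bulk leaf, fewer cells of a type and less RNA per cell cannot be told apart. The 5 homeobox genes taken as meristem markers summed to 96.0 to 110 FPKM under drought and 68.1 to 77.9 FPKM under normal conditions in the W22 and DH4866 sets, and to 63.6 to 74.2 and 74.8 to 85.0 FPKM in the B104 set. Nearly all of this came from the knotted-1-like gene GRMZM2G055243, and its part in the results was not tested. The other 4, left apart after their values were seen, summed to at most 0.25 FPKM in the W22 and DH4866 sets and to 0.31 to 2.41 FPKM in the B104 set. *ZmNF-YA1* itself had 91 to 107 counts in *zmnf-ya1* and 278 to 298 in W22 under normal conditions. Under drought it had 102 to 110 in *zmnf-ya1* and 121 to 145 in W22. The study states that its mutant lines lacked transcripts of this gene, which differs from the counts in the *zmnf-ya1* libraries. In the libraries labelled *ZmNF-YA1*OE, *ZmNF-YA1* had 260 to 278 counts, against 236 to 247 in DH4866 under normal conditions. Under drought it had 133 to 136 counts there, against 146 to 150 in DH4866. In counts, the ranges of the labelled overexpression libraries thus lay just above those of DH4866 under normal conditions and below them under drought. In FPKM the drought range of *ZmNF-YA1*OE, 3.86 to 3.95, lay within that of DH4866, 3.73 to 4.56. Every direction drawn below from *ZmNF-YA1*OE is that of the libraries so labelled. GRMZM2G079440, which RefSeq lists as the dehydrin *dhn1* and the deposited annotation as a chloroplast RNA polymerase subunit, had 253 to 267 counts under drought and 65.8 to 66.8 under normal conditions in W22. In DH4866 it had 46.0 to 48.3 counts under drought and 151 to 166 under normal conditions, the opposite order. In *ZmNF-YA1*OE it had 90.4 to 92.3 under drought and 1316 to 1534 under normal conditions. The *zmnf-ya1* libraries had 69.4 to 78.5 counts under drought and 73.3 to 98.0 under normal conditions, ranges that overlapped. In B104 it had 16741 to 17074 counts under drought and 126 to 145 under normal conditions. In *ZmNF-YB16* OE it had 10404 to 11132 under drought and 156 to 192 under normal conditions. The groups are called by their labels throughout.

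Before the levels, it matters which reads each gene could share with another. RSEM (a program that estimates counts) divides a read that fits several genes between them, which gives fractional counts. The counts of GRMZM2G051619 were whole numbers, within 0.02 of a count, in 24 of 24 libraries. Those of GRMZM2G031432 were whole in 3 of 24 libraries, and so were those of the summed pair. GRMZM2G152354, another gene that the study names *GA2OX1*, was likewise whole in 3 of 24, yet GRMZM2G031432 and GRMZM2G152354 summed to a whole number in 24 of 24 libraries. Of 37467 genes searched, GRMZM2G152354 was the only 1 that did so in every library. Reads were therefore divided between GRMZM2G031432 and GRMZM2G152354, and none were divided between the 2 genes of the pair. Values of GRMZM2G051619 carry no uncertainty of this kind, and the contrasts of GRMZM2G031432 are set below beside the sum of the 2 genes that share reads. The transcript models are 1122 bases long for GRMZM2G031432, 1547 for GRMZM2G051619 and 1531 for GRMZM2G152354, and FPKM corrects for this length.

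GRMZM2G051619, annotated as a gibberellin 2-beta-dioxygenase, had its highest level in W22 under drought, at 31.4 and 30.6 FPKM. DH4866 under drought followed at 14.4 and 14.1 FPKM, then *zmnf-ya1* under drought at 8.35 and 8.12 FPKM. These 3 drought groups stood clear of one another and of all other groups. W22 under normal conditions (6.71 and 7.03 FPKM), *ZmNF-YA1*OE under drought (6.27 and 6.69 FPKM) and *ZmNF-YA1*OE under normal conditions (6.10 and 5.65 FPKM) came next, with library values that did not overlap but lay close. DH4866 under normal conditions had 4.31 and 3.68 FPKM and *zmnf-ya1* under normal conditions had 4.06 and 3.44 FPKM, 2 groups that overlapped. The 4 groups of the B104 set came last, at 0 to 0.36 FPKM in all 8 libraries.

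GRMZM2G031432, annotated as a gibberellin 2-beta-dioxygenase that acts on C-19 gibberellins, was the less abundant member in every library of the W22 and DH4866 sets. It too was highest in W22 under drought, at 14.1 and 15.5 FPKM, followed by *zmnf-ya1* under drought at 6.31 and 7.44 FPKM. *ZmNF-YA1*OE under drought had 2.29 and 1.94 FPKM, and the means of the other 9 groups lay between 0.23 and 1.76 FPKM. Of 11 neighbouring pairs of groups in this order, 6 overlapped for GRMZM2G031432 and 3 for GRMZM2G051619. From the fifth-ranked group, W22 under normal conditions, down to the tenth, *ZmNF-YA1*OE under normal conditions, each group overlapped the next, although groups further apart in that run could be distinct, as W22 under normal conditions (1.21 and 1.30 FPKM) was from DH4866 under drought (0.98 and 1.03 FPKM).

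Summed over the pair, the level was 45.8 ± 0.438 FPKM in W22 under drought (SD, n = 2). DH4866 and *zmnf-ya1* under drought overlapped at 15.2 ± 0.198 and 15.1 ± 0.636 FPKM, and *ZmNF-YA1*OE under drought had 8.60 ± 0.0495 FPKM (SD, n = 2 each). All 4 normal groups of the W22 and DH4866 sets lay below these, at 4.28 to 8.13 FPKM. FPKM were scaled within each library, and levels are not tested between sets.

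**Figure D1:**
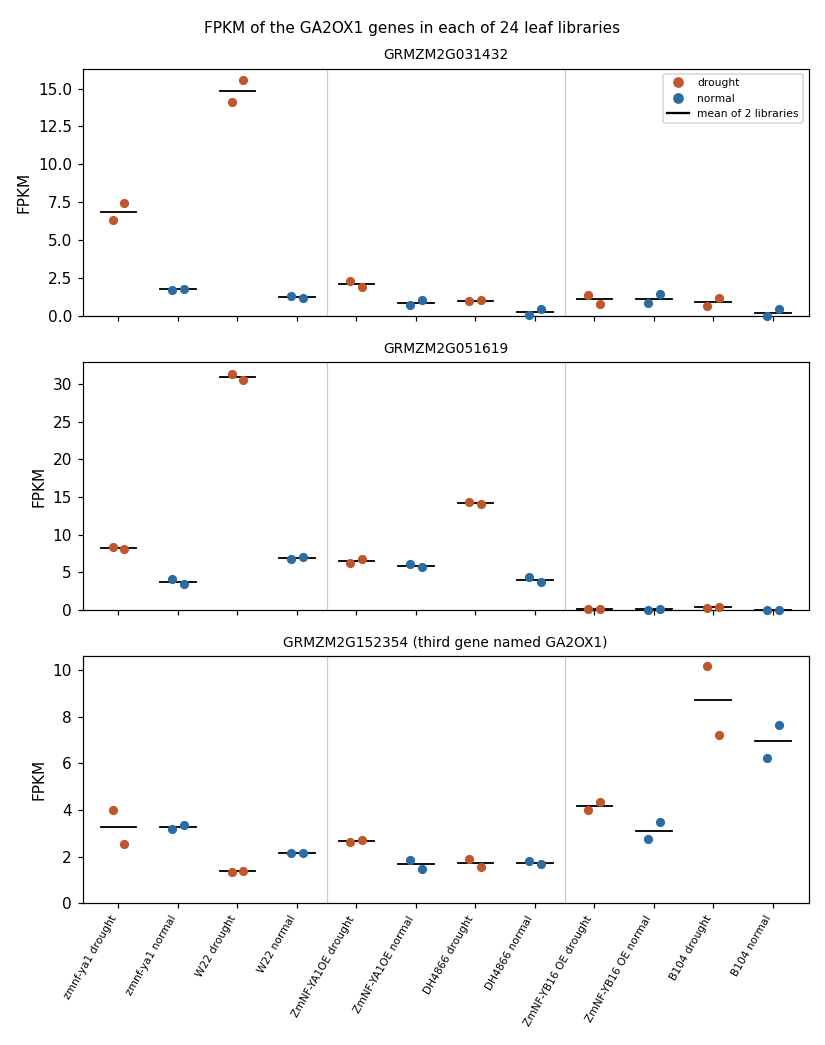
FPKM (fragments scaled by transcript length and mapped fragments, linear axis) of the 3 genes named GA2OX1 in each of 24 libraries, by group, with drought groups in orange, normal groups in blue and a line at the mean of the 2 libraries. Both members were highest in W22 under drought, whereas GRMZM2G152354 was highest in the B104 set, at 7.22 and 10.2 FPKM in B104 under drought.

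In the W22 set, where the pair was chosen, GRMZM2G051619 had 273 and 265 counts in *zmnf-ya1* under drought and 133 and 113 under normal conditions, against 1020 and 994 in W22 under drought and 217 and 227 under normal conditions. The fitted log2 fold change of drought over normal was 0.91 ± 0.11 (SE) in *zmnf-ya1* and 2.32 ± 0.09 in W22. The mutant's drought level was thus 0.271 times that of W22, and its normal level 0.722 times. GRMZM2G031432 had 148 and 174 counts in *zmnf-ya1* under drought and 41.1 and 41.7 under normal conditions, against 329 and 363 in W22 under drought and 30.3 and 28.0 under normal conditions. Its log2 fold change of drought over normal was 1.73 ± 0.15 in *zmnf-ya1* and 3.71 ± 0.15 in W22. The members differed in sign under normal conditions, where *zmnf-ya1* stood at 0.89 ± 0.22 relative to W22 (log2) for GRMZM2G031432 and at -0.47 ± 0.12 for GRMZM2G051619. For the pair summed, this log2 difference was -0.23 ± 0.10 under normal conditions and -1.63 ± 0.07 under drought.

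Every W22-set direction was the same with library size alone, but the scale of the comparison between genotypes under normal conditions was uncertain, since the median over all genes moved by -0.39 (log2) when TMM scaling (which assumes that most genes do not change) was left out. For the drought responses that median moved by 0.22 in *zmnf-ya1* and by -0.14 in W22. With library size alone the difference between mutant and W22 was 0.50 for GRMZM2G031432, -0.87 for GRMZM2G051619 and -0.63 for the pair. GRMZM2G152354 did not follow the pair in this set, with 129 and 82.6 counts in *zmnf-ya1* under drought and 42.9 and 45.0 in W22 under drought, a log2 fold change of 1.29. Under normal conditions it had 102.9 and 109.3 counts in *zmnf-ya1* and 68.7 and 69.0 in W22. Summed with GRMZM2G031432, it gave 277 and 257 counts in *zmnf-ya1* under drought against 372 and 408 in W22 under drought, and 144 and 151 against 99 and 97 under normal conditions. The log2 fold change of this sum for drought over normal was 0.64 in *zmnf-ya1* and 2.13 in W22, in both genotypes smaller than that of GRMZM2G031432 alone and of the same sign. Between *zmnf-ya1* and W22 the sum stood at 0.97 ± 0.12 under normal conditions and -0.52 ± 0.09 under drought.

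The DH4866 set asked the same questions of libraries whose values were not used to choose the pair, although earlier results of these data were known. GRMZM2G051619 had 206 and 219 counts in *ZmNF-YA1*OE under drought, against 198 and 181 under normal conditions. In DH4866 it had 475 and 463 counts under drought, against 140 and 120 under normal conditions. The groups did not overlap in either genotype. In *ZmNF-YA1*OE the log2 fold change of drought over normal was 0.23 ± 0.11 (SE, edgeR quasi-likelihood test, adjusted P = 0.087), which was not called. There, 12.2% of 24604 genes tested were called higher. The 95% interval of this fold change, 0.02 to 0.45, uses normal quantiles. It is narrower than the quasi-likelihood test implies, which gave an unadjusted P of 0.054. Here and below, a call means a log2 fold change beyond 1 in either direction together with P below 0.05 after adjustment. In DH4866 the gene rose 3.63-fold (log2 fold change 1.86 ± 0.11, adjusted P = 1.3e-09), among the 14.0% of genes that were called higher there.

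The difference between the 2 drought responses of GRMZM2G051619 was itself called, at a log2 value of -1.63 ± 0.15 (adjusted P = 5.4e-06), among the 3.04% of genes called in that direction and against 1.94% in the other. Under drought the gene had 0.452 times the level of DH4866 in *ZmNF-YA1*OE (log2 fold change -1.15 ± 0.10, adjusted P = 1.9e-06), where 1.58% of genes were called lower and 1.60% higher. Under normal conditions it was 1.40-fold higher in *ZmNF-YA1*OE (log2 fold change 0.48 ± 0.12, adjusted P = 0.010), short of the fold needed for a call, where 1.92% of genes were called higher and 1.01% lower. The call of the drought response in DH4866, of the interaction and of the difference under drought held without any 1 of the 8 libraries, a fit in which 1 group has a single library and takes its spread from the others.

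GRMZM2G031432 rested on far fewer reads in this set. It had 54.1 and 45.6 counts in *ZmNF-YA1*OE under drought, against 17.03 and 24.26 under normal conditions. In DH4866 it had 23.2 and 24.4 counts under drought, against 2.45 and 11.1 under normal conditions. The drought libraries lay above the normal ones in both genotypes. The log2 fold change of drought over normal was 1.35 ± 0.33 in *ZmNF-YA1*OE (adjusted P = 0.0029) and 1.84 ± 0.48 in DH4866 (adjusted P = 0.0037), both called. The interaction was -0.50 ± 0.60 (95% interval -1.67 to 0.67, adjusted P = 0.63), an interval wide enough to hold no difference as well as one of the size seen for GRMZM2G051619.

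Unlike GRMZM2G051619, GRMZM2G031432 was called higher in *ZmNF-YA1*OE than in DH4866 under drought (log2 fold change 1.08 ± 0.32, adjusted P = 0.027), and also under normal conditions (1.58 ± 0.49, adjusted P = 0.035). Both calls depended on the tool and on single libraries. DESeq2 gave adjusted P = 0.20 under drought and 0.11 under normal conditions. Leaving out 1 library ended the call under drought in 4 of 8 cases and under normal conditions in 7 of 8. The DH4866 normal libraries decided the size of the wild-type drought response, which was 1.12 without replicate 1 (the library with 2.45 counts) and 3.46 without replicate 2. The difference under normal conditions was 0.85 without replicate 1 and 3.18 without replicate 2.

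Adding the counts of GRMZM2G152354 changed the calls of GRMZM2G031432 in this set. The sum holds all reads of both genes, and the number that they shared is not known. GRMZM2G031432 made up at most 38.9% of it in any library of this set, so the sum follows mainly GRMZM2G152354. The 2 genes together had 139 and 133 counts in *ZmNF-YA1*OE under drought, against 77 and 71 under normal conditions, and 85 and 75 counts in DH4866 under drought, against 61 and 65 under normal conditions. The log2 fold change of this sum for drought over normal was 0.94 ± 0.14 in *ZmNF-YA1*OE (adjusted P = 5.7e-05) and 0.35 ± 0.16 in DH4866 (adjusted P = 0.070). None of the 4 calls of GRMZM2G031432 held for the sum, and the sign of the interaction turned, to 0.59 ± 0.22 (adjusted P = 0.079). Under drought the sum stood higher in *ZmNF-YA1*OE than in DH4866 by 0.76 ± 0.14 (edgeR, adjusted P = 0.0016), short only of the fold for a call. GRMZM2G152354 alone had log2 fold changes of 0.75 ± 0.19 in *ZmNF-YA1*OE and 0.01 ± 0.20 in DH4866, neither called.

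For the pair summed, the counts were 260 and 265 in *ZmNF-YA1*OE under drought against 215 and 205 under normal conditions, and 498 and 487 in DH4866 under drought against 142 and 131 under normal conditions. No groups overlapped within a genotype. In *ZmNF-YA1*OE the log2 fold change of drought over normal was 0.39 ± 0.09 (adjusted P = 0.0028), below the fold for a call. In DH4866 the pair rose 3.63-fold (log2 fold change 1.86 ± 0.09, adjusted P = 3.8e-10). The interaction was called, at -1.47 ± 0.14 (adjusted P = 4.0e-06). Under drought the pair had 0.532 times the wild-type level in *ZmNF-YA1*OE (log2 fold change -0.91 ± 0.08, adjusted P = 4.5e-06), and under normal conditions 1.47 times (0.56 ± 0.11, adjusted P = 0.0016), neither of which reached the fold for a call. *ZmNF-YA1* had no higher level in the *ZmNF-YA1*OE libraries under drought, as given above, and its part in these differences was not tested.

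**Figure D2:**
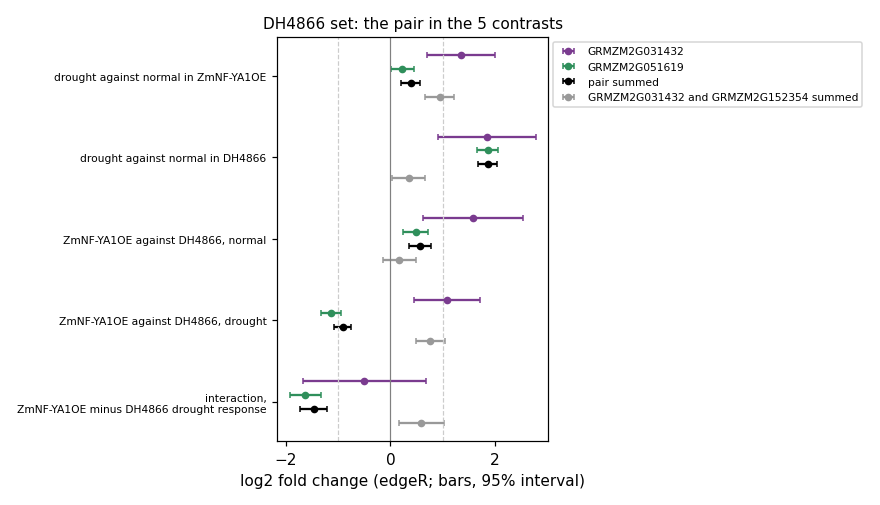
Fitted log2 fold changes (horizontal axis) in the 5 contrasts of the DH4866 set. Shown are GRMZM2G031432, GRMZM2G051619, their sum and the sum of GRMZM2G031432 with GRMZM2G152354. Bars are normal 95% intervals, narrower than the quasi-likelihood test implies, and dashed lines mark the fold needed for a call. GRMZM2G051619 and the pair sit at 0.23 and 0.39 for drought in *ZmNF-YA1*OE and both at 1.86 in DH4866, while the sum with GRMZM2G152354 sits at 0.94 in *ZmNF-YA1*OE and 0.35 in DH4866.

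In B104 and its overexpression line the pair was close to the limit of detection and neither gene passed the filter on low counts. GRMZM2G051619 had 1 and 1 counts in *ZmNF-YB16* OE under drought and 0 and 1 under normal conditions, against 2 and 3 in B104 under drought and 0 and 0 under normal conditions. At the rate of counts seen in DH4866 under normal conditions, 21.2 to 34.7 counts would have stood in each B104-set library, and at that of W22 36.5 to 59.6, against the 0 to 3 observed. Inbred line, growth, sampling, RNA extraction and sequencer, as far as the sources give them, go with the set and cannot be told apart. The 2 B104 normal libraries, with no count, allow up to 0.338 CPM (counts scaled to library size; 3 counts over both libraries), which covers counting error only. The 5 counts under drought were 0.464 CPM, and the exact 95% interval of the ratio of drought to normal in B104 reached down to 0.755, so that a difference was not detectable at this depth.

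GRMZM2G031432 had 8.56 and 4.77 counts in *ZmNF-YB16* OE under drought and 5.39 and 7.37 under normal conditions, against 4.04 and 7.19 in B104 under drought and 0 and 1.75 under normal conditions. The rates of DH4866 and W22 under normal conditions would give 1.10 to 1.80 and 4.79 to 7.83 counts per library. Counts of drought over normal had a ratio of 0.961 in *ZmNF-YB16* OE (exact 95% interval 0.410 to 2.25) and of 4.53 in B104 (0.989 to 42.1). These intervals cover counting error and not the spread between plants. Under normal conditions the ratio of *ZmNF-YB16* OE over B104 was 5.64 (1.28 to 51.5), on 13 and 2 rounded counts, and under drought 1.196 (0.495 to 2.95). With the reads of GRMZM2G152354 added, the fitted log2 fold change of drought over normal was 0.09 ± 0.26 in *ZmNF-YB16* OE and 0.13 ± 0.22 in B104. In B104, GRMZM2G031432 made up only 0% to 4.17% of that sum under normal conditions and 4.54% to 10.9% under drought. The sum therefore cannot show whether the larger ratio in B104 held. In an unfiltered edgeR fit, neither gene passed an adjusted P of 0.05 in any of 5 contrasts, with 1 contrast of GRMZM2G031432 and 0 of GRMZM2G051619 below an unadjusted P of 0.05.

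The pair summed had 9.56 and 5.77 counts in *ZmNF-YB16* OE under drought and 5.39 and 8.37 under normal conditions, against 6.04 and 10.2 in B104 under drought and 0 and 1.75 under normal conditions. The B104 normal libraries thus stood below all others. The ratio of drought to normal was 1.03 in *ZmNF-YB16* OE (exact 95% interval 0.463 to 2.30) and 6.59 in B104 (1.55 to 59.1), and that of *ZmNF-YB16* OE to B104 was 0.949 under drought (0.437 to 2.05) and 6.08 under normal conditions (1.40 to 55.1). In the unfiltered edgeR fit, 2 of 5 contrasts of the pair were below an unadjusted P of 0.05 and 0 below it after adjustment, with the lowest adjusted P at 0.061.

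Among the 3 genes named *GA2OX1*, GRMZM2G152354 carried most of the signal in the B104 set. It had 33.4 and 34.2 counts in *ZmNF-YB16* OE under drought and 23.6 and 24.6 under normal conditions, against 85.0 and 58.8 in B104 under drought and 52.0 and 40.3 under normal conditions. The libraries of the line lay below those of B104 in both conditions, in FPKM as well. It was called lower in *ZmNF-YB16* OE under drought (log2 fold change -1.13 ± 0.24, edgeR, adjusted P = 0.00090), where 6.10% of 21970 genes tested were called lower, and under normal conditions (-1.20 ± 0.27, adjusted P = 0.0016), where 6.19% were. With the reads of GRMZM2G031432 added, these became -0.96 ± 0.22 (adjusted P = 0.0022) and -0.92 ± 0.25 (adjusted P = 0.0085), below the fold for a call. Its drought response was 0.14 ± 0.28 in *ZmNF-YB16* OE (95% interval -0.42 to 0.69) and 0.06 ± 0.23 in B104 (-0.38 to 0.50).

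The division of reads within a library does not depend on how libraries are scaled. GRMZM2G031432 made up 35.2% and 39.7% of the pair's counts in *zmnf-ya1* under drought and 23.6% and 27.0% under normal conditions, against 24.4% and 26.8% in W22 under drought and 12.2% and 11.0% under normal conditions. The share was thus higher under drought in both genotypes and higher in the mutant than in W22 in both conditions, with no overlap. It was 20.8% and 17.2% in *ZmNF-YA1*OE under drought and 7.92% and 11.8% under normal conditions, against 4.65% and 5.0% in DH4866 under drought and 1.72% and 8.43% under normal conditions. In DH4866 the drought values fell between those of the 2 normal libraries. Among B104-set libraries, where the pair had 0 to 10.2 counts each, GRMZM2G031432 made up at least 66.9% of them wherever there was a count.

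Of its summed counts with GRMZM2G152354, GRMZM2G031432 made up 53.5% and 67.9% in *zmnf-ya1* under drought and 27.6% to 28.5% under normal conditions, against 88.5% and 89.0% in W22 under drought and 28.9% to 30.6% under normal conditions. In every library of the DH4866 and B104 sets its share was at most 38.9%. The counts of GRMZM2G031432 in these 2 sets were thus the smaller portion of that sum, and those in W22 under drought the larger.

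**Figure D3:**
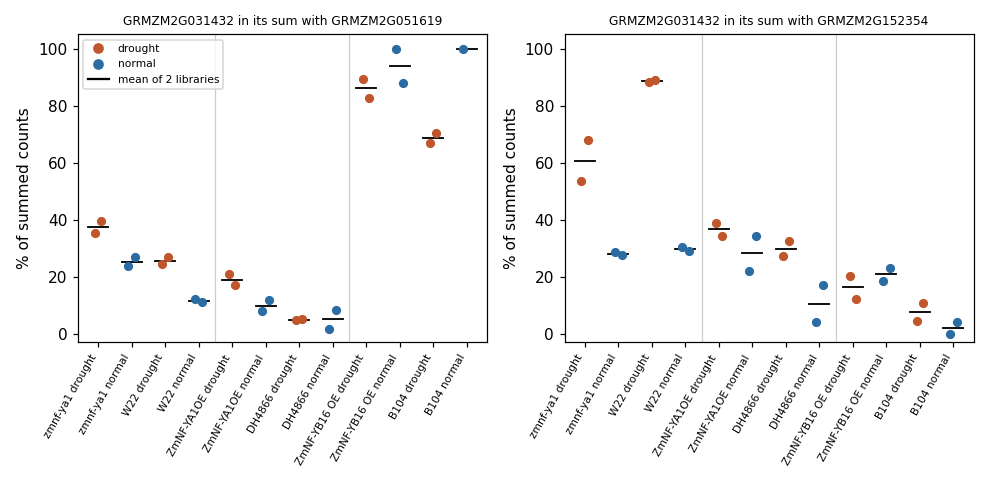
Share of GRMZM2G031432 (percent of summed counts) in its sum with GRMZM2G051619, left, and with GRMZM2G152354, right, in each library, with drought groups in orange, normal groups in blue and lines at the mean of a group. The right panel shows W22 under drought at 88.5% and 89.0% and all DH4866-set and B104-set libraries at or below 38.9%; in the left panel the B104-set points rest on 1.75 to 10.2 counts.

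For the genes most like each member, log2(CPM + 1) was centred within each set and correlated over the 24 libraries, among 19792 genes that passed the filter in all 3 sets. Libraries of 1 group and sets of 1 depth share much of their variation, so r is a description of likeness. For GRMZM2G051619 the 5 most similar genes were GRMZM2G006977 (no described function, r = 0.87), GRMZM2G114681 (a TIFY 6A-like protein of the family that holds the jasmonate repressors, r = 0.87), GRMZM2G149295 (a cupin, r = 0.87), GRMZM2G117851 (bZIP transcription factor 1, r = 0.85) and GRMZM2G065557 (no described function, r = 0.85). For GRMZM2G031432 they were GRMZM2G149751 (annotated in the methionine synthase family, r = 0.93), GRMZM2G063438 (anthranilate O-methyltransferase 3, r = 0.93), GRMZM2G079083 (pre-rRNA-processing protein TSR2, r = 0.92), GRMZM2G116079 (putative zinc finger protein 30, r = 0.91) and GRMZM2G031326 (nucleolar complex protein 4, r = 0.91). The 2 lists shared 0 genes. The members had r = 0.73 with each other, and with GRMZM2G152354 GRMZM2G031432 had r = -0.26 and GRMZM2G051619 r = -0.37. Neither member passed the filter in the B104 set, so their values there lay near the floor. Since RSEM divided reads between GRMZM2G031432 and GRMZM2G152354, the r of these genes does not measure likeness alone. By Spearman's rho, 2 of the 5 genes of GRMZM2G051619 and 1 of the 5 of GRMZM2G031432 were still among the top 5.

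TIFY 6A-like GRMZM2G114681 had 15.7 FPKM in *zmnf-ya1* under drought and 13.6 under normal conditions, against 36.2 in W22 under drought and 13.1 under normal conditions, and 22.2 in *ZmNF-YA1*OE under drought and 15.8 under normal conditions, against 26.8 in DH4866 under drought and 14.0 under normal conditions (means of 2). It had 39.3 FPKM in *ZmNF-YB16* OE under drought and 21.6 under normal conditions, against 33.7 in B104 under drought and 21.3 under normal conditions. Its mean rise under drought was larger in W22 and DH4866 than in the genotypes set against them, and smaller in B104. These differences were not tested. GRMZM2G114681 and GRMZM2G063438 were selected for likeness to a member over these same libraries, so a shared pattern was built in. Levels of the other similar genes are not given here. Anthranilate O-methyltransferase 3 had 24.9 FPKM in *zmnf-ya1* under drought and 10.4 under normal conditions, against 43.5 in W22 under drought and 11.8 under normal conditions. It had 30.3 FPKM in *ZmNF-YA1*OE under drought and 19.1 under normal conditions, against 23.96 in DH4866 under drought and 12.3 under normal conditions. In *ZmNF-YB16* OE it had 9.30 FPKM under drought and 12.6 under normal conditions, against 7.67 in B104 under drought and 6.86 under normal conditions, and the drought mean of the line was thus the lower of its 2.

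The rest of the gibberellin pathway was followed in 30 other genes whose annotation gives them a specific role, of which 18 passed the filter in the W22 set, 19 in the DH4866 set and 17 in the B104 set. In the W22 set, 6 of 18 were called higher under drought in *zmnf-ya1* (12.1% of all 24159 genes) and 2 lower (13.2%). In W22 likewise 6 were called higher (17.5% of all genes) and 2 lower (14.4%). The list's median log2 fold change was 0.31 in *zmnf-ya1* and 0.42 in W22, beside 0.007 and -0.003 over all genes. In the DH4866 set, 3 of 19 were called higher and 4 lower under drought in *ZmNF-YA1*OE (12.2% and 12% of all genes). In DH4866, 3 were called higher and 3 lower (14.0% and 12.9% of all genes). The medians were -0.19 in *ZmNF-YA1*OE and 0.01 in DH4866, both beside -0.01 over all genes. Among B104-set genes, 2 of 17 were called higher and 5 lower in *ZmNF-YB16* OE (11.3% and 11.9% of all genes), and 4 higher and 4 lower in B104 (12.1% and 13.0%). The medians were -0.24 in *ZmNF-YB16* OE, beside 0.004 over all genes, and -0.54 in B104, beside 0. Without TMM scaling the median over all genes in the drought responses of that set moved by 0.25 in *ZmNF-YB16* OE and 0.29 in B104.

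Of 8 other GA 2-oxidase genes, 4 passed the filter in the W22 and DH4866 sets and 2 in the B104 set. GRMZM2G427618, at under 1 FPKM throughout, was called higher under drought in all 4 genotypes of the W22 and DH4866 sets, with log2 fold changes of 1.96 in *zmnf-ya1*, 3.27 in W22, 1.76 in *ZmNF-YA1*OE and 3.13 in DH4866. GRMZM2G022679 went the other way and was called lower in W22 (-1.20), *ZmNF-YA1*OE (-2.45) and DH4866 (-1.98). GRMZM2G177104 was called higher in W22 under drought (2.46), where *zmnf-ya1* had -0.09. Its interaction was -2.55 (edgeR, adjusted P = 0.00052), among the 2180 of 24159 genes called in that direction. Under normal conditions it was already called higher in *zmnf-ya1* than in W22 (2.52), and under drought the genotypes stood at 1.28 and 1.33 FPKM. It was also called higher in *ZmNF-YA1*OE than in DH4866 under normal conditions (1.66). In the B104 set GRMZM2G022679 was called lower in *ZmNF-YB16* OE than in B104 under drought (-1.23). By level, GRMZM2G051619 was the most abundant of the 10 GA 2-oxidase genes in each group of the W22 and DH4866 sets except DH4866 under normal conditions, where GRMZM2G022679 had a mean of 4.45 FPKM.

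Of the synthesis genes, the GA 20-oxidase GRMZM2G049418 was called lower under drought in *zmnf-ya1* (-2.55), *ZmNF-YA1*OE (-2.66), DH4866 (-2.49) and B104 (-4.11), whereas W22 had -0.22. The difference between the responses of *zmnf-ya1* and W22 was called (-2.33, edgeR, adjusted P = 9.9e-08), among the 2180 of 24159 genes called in that direction. Under normal conditions the gene was called higher in *zmnf-ya1* than in W22 (1.40), at means of 21.4 and 10.7 FPKM. These contrasts of genotypes under normal conditions carry the scaling shift of the W22 set given above. In *ZmNF-YB16* OE it was not listed in either drought library, which was taken as 0, and had a mean of 1.04 FPKM under normal conditions. The GA 3-oxidase *Dwarf1* (GRMZM2G036340) was called higher under drought in W22 (1.57), *ZmNF-YA1*OE (1.61) and DH4866 (2.18), and had 0.79 in *zmnf-ya1*. Under normal conditions it was also called higher in *zmnf-ya1* than in W22 (1.15) and in *ZmNF-YA1*OE than in DH4866 (1.13). The first of these carries the same scaling shift. Over all genes, 2030 of 24159 were called higher in *zmnf-ya1* than in W22 under normal conditions, and 1.92% in *ZmNF-YA1*OE than in DH4866. Among genes of the early steps, the *ent*-copalyl diphosphate synthase *an2* (GRMZM2G044481), which in maize also serves the synthesis of defence diterpenes, was called higher in all 4 genotypes of these sets with group means of at most 0.385 FPKM. The *ent*-kaurene oxidase-like gene GRMZM2G161472 was called lower in all 4, with log2 fold changes of -1.89 in *zmnf-ya1*, -1.99 in W22, -1.65 in *ZmNF-YA1*OE and -2.02 in DH4866. A second copalyl diphosphate synthase, *an1* (GRMZM2G081554), was called higher in *zmnf-ya1* only (2.15, against 0.61 in W22, a difference that was not called). Its mean in *zmnf-ya1* was 0.33 FPKM under drought and 0.055 under normal conditions, against 0.42 and 0.30 in W22. The cytochrome P450 GRMZM2G059308 was called lower in *ZmNF-YB16* OE and in B104 (-1.82 in both).

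Of the receptor genes, GRMZM2G301932 was called higher under drought in *zmnf-ya1* (1.15) and W22 (2.85) and in no genotype of the other sets. In the B104 set it was called higher in *ZmNF-YB16* OE than in B104 under normal conditions (1.00). The GID1-like gene GRMZM2G173630 was called higher under drought in B104 (1.34), and GRMZM2G062019 lower in *ZmNF-YB16* OE (-4.25) and B104 (-2.62). Of the DELLA genes, GRMZM2G001426 was called higher in *zmnf-ya1* (1.05) and W22 (2.18) but lower in B104 (-1.98). GRMZM2G013016 was called higher in *zmnf-ya1* (1.86), *ZmNF-YB16* OE (2.24) and B104 (4.90), and lower in *ZmNF-YA1*OE (-1.13). Its mean in *zmnf-ya1* was 2.03 FPKM under drought and 0.475 under normal conditions, against 1.215 and 1.735 in W22. *Dwarf8* (GRMZM2G144744) and *d9* (GRMZM2G024973) were called lower under drought in *ZmNF-YB16* OE (-1.01 and -1.16). In the W22 and DH4866 sets neither was called under drought. *d9* was also called lower in *ZmNF-YB16* OE than in B104, at -1.77 under drought and -1.17 under normal conditions. Of the GASA family, whose members respond to gibberellin, GRMZM2G150688 was called higher under drought in *ZmNF-YB16* OE (1.01) and B104 (2.196), and GRMZM2G068202 in B104 (4.53).

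**Figure D4:**
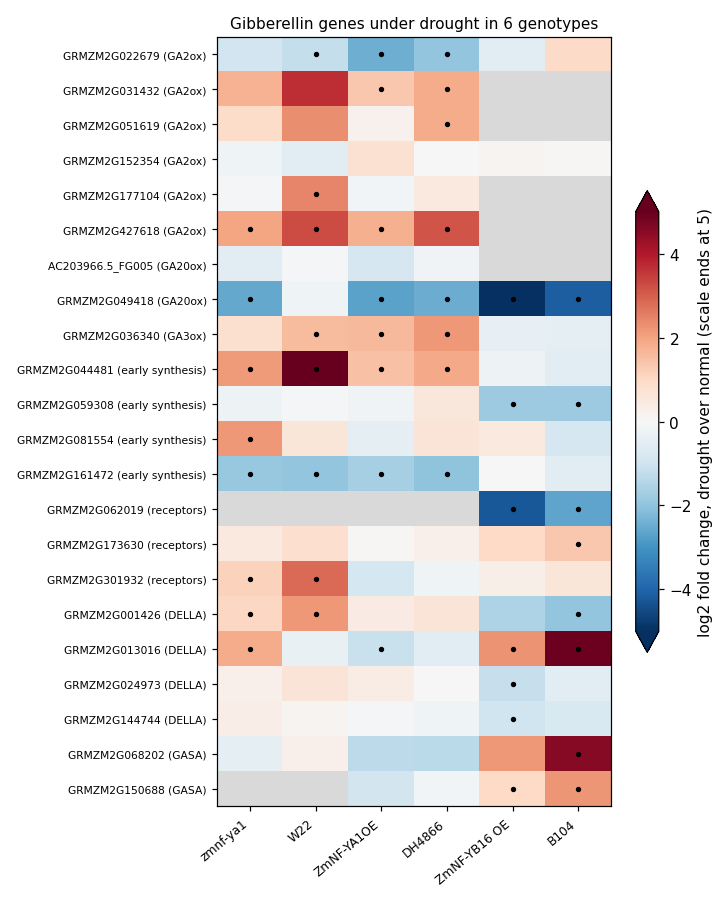
Log2 fold change of drought over normal (colour, scale ending at 5) for each gibberellin gene that passed the filter, by role and genotype, with a dot where the change was called and grey where the gene did not pass; the 2 members carry no dot in W22 and *zmnf-ya1*, where they were not tested. The members are red in W22 and DH4866, and GA 20-oxidase GRMZM2G049418 is blue and called in 5 of 6 genotypes, all but W22.

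The broader list by annotation text, with 169 other genes, includes many GRAS proteins and carboxylesterases whose part in gibberellin signalling is not known. In the W22 set, 23 of 119 tested were called higher and 16 lower under drought in *zmnf-ya1* (12.1% and 13.2% of all genes), and 32 and 16 in W22 (17.5% and 14.4%). In the DH4866 set, 18 of 122 were called higher and 24 lower in *ZmNF-YA1*OE (12.2% and 12% of all genes), and 21 and 21 in DH4866 (14.0% and 12.9%). In the B104 set, 12 of 101 were called higher and 17 lower in *ZmNF-YB16* OE (11.3% and 11.9% of all genes), and 17 and 24 in B104 (12.1% and 13.0%).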

How the data were processed

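RNA-seq of 24 maize leaf libraries was used. The authors deposited expected counts, estimated with RSEM after Bowtie2 alignment to maize B73 V3 gene models, and FPKM, which the authors scaled by transcript length and mapped fragments. Genes with FPKM below 0.01 were not listed and were taken as 0. Groups came from the labels. Expected counts were rounded and each set was fitted on its own (R 4.3.3, edgeR 4.0.16 quasi-likelihood test, TMM, filter by group, 8 libraries), with P adjusted by Benjamini and Hochberg over 24159 (W22), 24604 (DH4866) and 21970 (B104) genes; the fit was tested on simulated data. For the pair, both rows were replaced by their sum. Log2 fold changes have normal 95% intervals, which are narrower than the quasi-likelihood test implies, and count ratios have exact binomial intervals. Depth was 3429314 to 21289711 counts per library. The intervals of count ratios cover counting error only, since the reads carry no molecular identifiers, whereas those of fitted fold changes include the spread between libraries. Where a library was left out, its group kept 1, and the other groups supplied the spread, on the assumption that the lone library varied like them.

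The members, lists and tests were chosen with earlier results of these data known. Named were the members, their sum, GRMZM2G152354, the 5 genes most like each member, and gibberellin genes called in at least 1 contrast; naming was narrowed to 32 of 171 list genes with a specific role after their annotation had been read. No sequences or coordinates are given, since no genome of the same build was used here. Alternatives were DESeq2, other scalings, no filter, adjusted P of at most 0.001, limma on log2(FPKM + 1) and log2(FPKM + 0.1), a replicate block, 2 groups alone and each library left out.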

Additional observations from a re-analysis of the deposited data

Results flagged for a closer look

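The drought response of GRMZM2G051619 differed between the libraries labelled *ZmNF-YA1*OE and DH4866 by -1.63 on the log2 scale, and that of the pair summed by -1.47 (edgeR interaction test, adjusted P = 5.4e-06 and 4.0e-06). Both stand out because the 2 genotypes differed under the same condition labels by a test of the difference itself. *ZmNF-YA1* was not higher in the *ZmNF-YA1*OE drought libraries (133 to 136 counts, against 146 to 150 in DH4866), and its part in the difference was not tested.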

How the results depend on the processing

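With 2 libraries in a group, the spread of any single gene is poorly known, and GRMZM2G031432 in the DH4866 set is limited by its 2.45 to 54.1 counts. For GRMZM2G051619 and the pair in that set, every call and direction held under all alternatives run. GRMZM2G031432 lost all 4 calls at an adjusted P of at most 0.001 (log2 fold changes 1.35 for drought in *ZmNF-YA1*OE, 1.84 for drought in DH4866, 1.58 for the genotypes under normal conditions and 1.08 under drought). It lost all 4 by size with limma on log2(FPKM + 1), at 0.72, 0.66, 0.57 and 0.63, where the interaction reversed to 0.067, and with the reads of GRMZM2G152354 added, an alternative chosen after seeing the data, at 0.94, 0.35, 0.17 and 0.76, where it reversed to 0.59. The genotype difference under normal conditions was also lost with no filter (1.57), DESeq2 (1.59) and 2 groups alone (1.58), and that under drought with no filter (1.08), DESeq2 (1.07) and limma on log2(FPKM + 0.1) (1.00).

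Leaving out 1 library gave GRMZM2G031432 ranges of 1.15 to 1.61, 1.12 to 3.46, 0.85 to 3.18 and 0.96 to 1.19 for these contrasts and -2.10 to 0.23 for the interaction, positive only without DH4866 normal replicate 1.

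In the W22 set no direction changed. The pair moved by more than the replicate spread with library size alone, limma on log2(FPKM + 1) and limma on log2(FPKM + 0.1): to 1.39, 1.31 and 1.44 for drought in *zmnf-ya1*, 2.42, 2.36 and 2.48 in W22, -0.63, -0.49 and -0.55 for the genotypes under normal conditions, and -1.03, -1.05 and -1.04 for the interaction, and to -1.54 under drought with log2(FPKM + 1). Leaving out 1 library gave 1.03 to 1.29, 2.54 to 2.59, -0.37 to -0.11, -1.53 to -1.26 and, under drought, -1.66 to -1.60.

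Replicate numbers did not mark pairs in the labels, and correlations of deviations were 0.06 to 0.19 in the DH4866 set. With the replicate block the interaction of GRMZM2G051619 stayed at -1.63, and no call of the pair or its members changed. Of the other gibberellin genes, 3 in place of 5 were lower under drought in *ZmNF-YB16* OE with library size alone, and 1 in place of 3 higher in *ZmNF-YA1*OE with DESeq2. Between *zmnf-ya1* and W22 under normal conditions, library size alone left 2 in place of 5 of 18 called higher and 3 in place of 2 lower. With TMM scaling, 2030 of all 24159 genes were called higher in that contrast and 1610 lower.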
